A study of Mus musculus with 8 samples.

Results

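The genes described here build, anchor and remodel the extracellular matrix: collagens, laminins, integrins, matrix metalloproteinases and their inhibitors, ADAMTS proteases, lysyl oxidases, latent TGF-beta binding proteins, and Dcn, Fn1 and Sparc. They were chosen by gene symbol alone, from the probes that the platform annotation gives a single symbol. Mmp8 was left out. The rule found 81 genes on 132 probes, of 9030 named genes and 20794 probes on the array, and all 81 could be tested among 16811 features (8880 named genes and 7931 unnamed probes).

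The samples were livers of 4 male Abcb4-/- mice of the strain Balb/cByJ, aged 17 weeks. Each was hybridised on 2-colour cDNA arrays against 1 pool of liver RNA from wild-type males of the same strain and age, on 2 arrays with the dyes exchanged (8 samples). The sample labels list 4 animals in the pool and the labelling protocol 6. The sources used here do not say how the Abcb4 allele was made. The pool is the only control, so each mean ratio was tested against 0, and how much wild-type mice differ from each other does not enter the tests. A value is read as the log2 of a ratio of signals on 1 array. It tells nothing of the level of a gene, so ratios of different genes are not compared as levels. For the same reason the markers of liver cells cannot show which tissue was sampled.

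Abcb4 encodes the transporter that moves phosphatidylcholine across the canalicular membrane of the hepatocyte into bile, and livers without it are used as a model of bile duct injury with scarring around the ducts. In a scarring liver, stellate cells and portal fibroblasts lay down fibrillar collagens, chiefly types I and III, which lysyl oxidases cross-link. Laminins and collagen IV form the basement membranes under bile ducts and vessels, integrins bind cells to either kind of matrix, and metalloproteinases cut it while tissue inhibitors of metalloproteinases restrain them. Small proteoglycans such as decorin coat collagen fibrils.

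In mouse 1 the 2 columns cancelled to within 0.012 at each of 20577 probes, so they are 1 hybridisation entered with opposite signs, and mouse 1 entered no mean. The results rest on 6 arrays of mice 2, 3 and 4, each mouse taken as the mean of its 2 dye orientations (n = 3 mice). Between 20577 and 20738 probes per array were measured. The Cy3 array of mouse 3 (an array is named here by the dye of the mutant) stood apart, with an SD of 0.561 over all probes against 0.244 to 0.331 on the other hybridisations. The 2 orientations of a mouse correlated over all probes at 0.0995, -0.132 and 0.0074 for mice 2, 3 and 4. The mean ratio of the Cy5 arrays correlated with that of the Cy3 arrays at -0.069 over all probes, and at 0.348 over the probes of the matrix and adhesion genes. These correlations are descriptions over probes that share arrays. A positive ratio likely means more signal in the mutant than in the pool, since the mutant is channel 1 of every sample and the signs of the copied column and of placeholder values fit a common direction, but no source states it.

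The names of the probes had to be settled from the data, because probes of the same gene did not give like ratios when names and values were joined by the deposited probe number. Over 4765 pairs of same-named probes from genes outside the matrix and adhesion set, the rank correlation of their mean ratios in mice 2 to 4 was -0.0107. With each name moved by 11 rows it was 0.107 over 4736 pairs, the highest of 4001 displacements tried, the next being 0.0543. In mouse 1, which is not among those mice, the correlation was 0.00934 without displacement and 0.0719 at 11 rows, again the highest, with the next at 0.0598. The 93 probes of cytosolic ribosomal proteins had a median SD over the 6 arrays of 0.219 by deposited number and 0.169 at 11 rows, and none of 2001 displacements gave a lower one. For the matrix and adhesion genes themselves, pairs of probes correlated at 0.119 by deposited number and at 0.434 at 11 rows. The gain was small where a pair had a probe with a number above 8000 and up to 14000 (0.0395 at 11 rows, against 0.151 for the other pairs), and 13 of the 132 probes and 5 genes (Lama4, Itga2, Itgb3bp, Lamc3 and Col25a1) lie only there. The values below use names moved by 11 rows. No source states this displacement, it was adopted after the values had been seen, and the values under the deposited numbers are given for Abcb4, the genes with the highest means, the fibrillar collagens and the set as a whole.

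**Figure D1:**
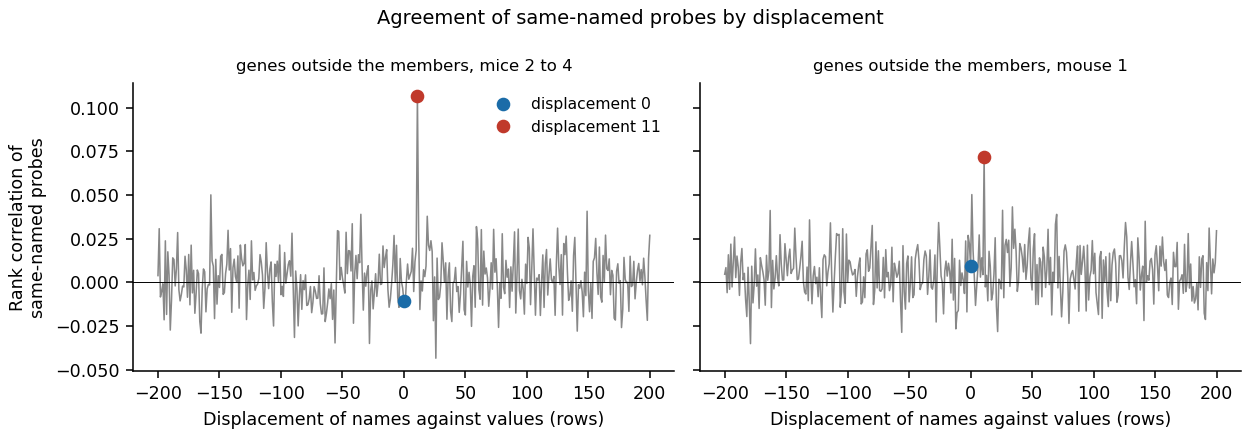
Rank correlation of the mean log2 ratios of same-named probes (vertical axis) against the number of rows by which names were displaced (horizontal axis), for genes outside the matrix and adhesion set, in mice 2 to 4 (left) and in mouse 1 (right). The red point at 11 rows, 0.107 on the left and 0.0719 on the right, stands above every other displacement drawn, while the blue point at no displacement lies near 0.

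Abcb4, the gene named in the genotype, was itself lower than the pool on all 6 arrays. The single probe of Abcb4 read -0.41 and -0.25 in mouse 2, -0.42 and -0.12 in mouse 3, and -0.59 and -0.39 in mouse 4, with the mutant in Cy5 and in Cy3 respectively. Its mean was -0.36 ± 0.11 (SD, n = 3 mice), with a limma adjusted p of 0.147, and the Cy5 column of mouse 1 gave -0.53. By deposited number the mean was -0.27, with an adjusted p of 0.530. No source used here tells which part of the gene the allele changes or whether the probe lies there, so it is a weak check of the labels.

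Of the 81 matrix and adhesion genes, 2 passed the test and both rose: Col3a1, a chain of fibrillar collagen III, and Dcn, the proteoglycan decorin. Over all 16811 features 69 passed (0.41%), 53 of them positive (0.315%) and 16 negative (0.0952%). No matrix or adhesion gene fell past the threshold of limma, and the 2 negative ones with an unadjusted p under 0.05 were Adamts7 and Lamc1. Because whole liver was measured, more cells that make a transcript and more of the transcript per cell cannot be told apart.

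Col3a1 was the highest of the 81. Mouse 2 gave 1.21 with the mutant in Cy5 and 1.75 with it in Cy3, mouse 3 gave 1.29 and 0.71, and mouse 4 gave 1.23 and 0.61. All 6 arrays lay well above 0, the Cy5 arrays close together and the Cy3 arrays spread more widely. The mean was 1.13 ± 0.30 (SD, n = 3 mice), a 2.19-fold ratio, with a limma adjusted p of 0.0124. Mouse 1 gave 1.58, inside the range of the other arrays. The call was lost without mouse 3 (1.2, adjusted p = 0.0681) and on the Cy3 arrays alone (1.02, adjusted p = 0.175). By deposited number the name Col3a1 falls on a probe with a mean of 0.07 ± 0.03 (adjusted p = 0.819).

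Dcn came next. It read 1.07 and 0.76 in mouse 2, 0.48 and 0.98 in mouse 3, and 1.02 and 0.88 in mouse 4, with the mutant in Cy5 and in Cy3 respectively. All arrays were positive, the lowest being the Cy5 array of mouse 3. The mean was 0.87 ± 0.12 (SD, n = 3 mice), a 1.82-fold ratio, with a limma adjusted p of 0.00910, and mouse 1 gave 0.77. The mean kept its size on either dye alone, but the call was lost there (0.86, adjusted p = 0.0870 on the Cy5 arrays and 0.87, adjusted p = 0.0610 on the Cy3 arrays), with arrays scaled to equal spread (0.73, adjusted p = 0.0502) and with the Cy5 array alone standing for mouse 3 (0.78, adjusted p = 0.0946). By deposited number the name Dcn falls on a probe with a mean of -1.02 ± 0.60 (adjusted p = 0.115), which is the opposite sign.

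Both calls depend on the direction of the columns. With the sign of the Cy3 columns turned, the mean of a mouse measures the difference between its orientations, and Col3a1 was 0.11 and Dcn -0.01 with neither called.

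**Figure D2:**
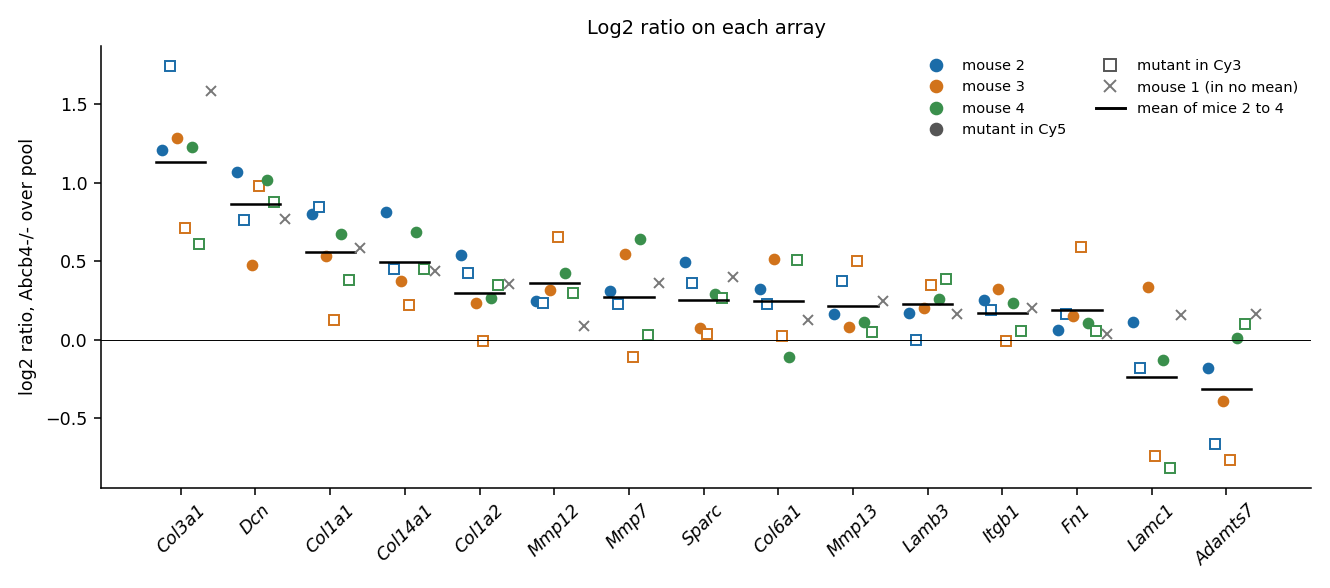
Log2 ratio of Abcb4-/- liver over the wild-type pool on each array (vertical axis) for 15 matrix and adhesion genes (horizontal axis), with colours for mice 2 to 4, filled circles for the mutant in Cy5, open squares for the mutant in Cy3, crosses for the hybridisation of mouse 1 and bars for the mean of mice 2 to 4. Every point of Col3a1, Dcn, Col1a1 and Col14a1 lies above 0, while the open squares of Lamc1 lie below its filled circles.

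The fibrillar collagens are the tensile fibres of scar tissue. Of 10 measured, 9 had a positive mean, 8 of 10 with arrays centred on their medians, and 1 passed. Over all features 58.8% had a positive mean, 7689 of 16811 after centring, and 0.41% passed. These shares stand beside the counts of every family below. The median of the fibrillar collagens was 0.15, beside 0.02 over all features, and by deposited number 0.03, beside 0.02. The promoters of Col3a1 and Col1a2 are shown because these are the fibrillar collagens with the highest means that have an entry in the promoter table. The sequences are the 250 bases before the annotated start, from RefSeq on build GRCm38.p6, on the plus strand in both cases, Col3a1 at chr1:45311288-45311537 and Col1a2 at chr6:4505368-4505617. Capitals mark matches to 3 motifs, each searched on both strands: the CCAAT box, read as its 5 letters, the TATA box, read as TATAAA, and the GC box, read as GGGCGG.
Col3a1: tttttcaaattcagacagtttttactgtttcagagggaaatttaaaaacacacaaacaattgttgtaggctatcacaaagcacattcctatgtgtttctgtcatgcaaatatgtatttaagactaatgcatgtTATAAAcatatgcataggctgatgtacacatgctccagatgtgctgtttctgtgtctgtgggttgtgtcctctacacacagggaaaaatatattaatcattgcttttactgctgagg
Col1a2: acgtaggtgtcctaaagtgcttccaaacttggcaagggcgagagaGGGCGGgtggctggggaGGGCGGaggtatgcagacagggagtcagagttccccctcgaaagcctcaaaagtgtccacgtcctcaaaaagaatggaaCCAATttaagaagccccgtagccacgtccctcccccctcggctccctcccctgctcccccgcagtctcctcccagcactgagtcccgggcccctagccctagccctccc

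The Col3a1 window holds 1 match, a TATAAA that begins 117 bases before the start. The Col1a2 window holds a CCAAT that begins at 109 bases and 2 GGGCGG at 205 and 188 bases before the start. Among 32851 promoters of this length, 33.8% held the CCAAT box, 12.4% the TATA box and 32.7% the GC box, in either orientation. Among the 61 promoters found for 52 of the matrix and adhesion genes, the shares were 27.9%, 11.5% and 55.7%. A match is a description of letters and not a binding site.

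Col1a1, the major chain of collagen I, was positive on all 6 arrays but did not pass. It read 0.81 and 0.85 in mouse 2, 0.54 and 0.12 in mouse 3, and 0.67 and 0.39 in mouse 4, in the same order of dyes. The lowest value was the wide array of mouse 3. Its mean was 0.56 ± 0.25 (SD, n = 3 mice), a 1.48-fold ratio, with an adjusted p of 0.0951, and its 2 probes gave 0.55 and 0.58. In a limma fit of the 6 arrays with a dye term and the mouse as random block, the adjusted p was 0.0418. That fit takes each array as an observation, and 127 features passed in it, beside 69 in the fit of mouse means. By deposited number the name had a mean of -0.08 (adjusted p = 0.897), the opposite sign.

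Col1a2, the partner chain in the collagen I trimer, was measured by 4 probes that gave means of 0.23, 0.29, 0.38 and 0.30. The gene mean over mice was 0.30 ± 0.18, with 5 of the 6 arrays above 0 and the Cy3 array of mouse 3 at -0.01 (adjusted p = 0.293), and by deposited number 0.12. The chains of collagen V, which regulates fibril diameter, were less regular. Col5a1 had a mean of 0.13 ± 0.06 and Col5a2 of 0.19 ± 0.22 (adjusted p = 0.618 and 0.592). The 2 probes of Col5a2 disagreed, at 0.47 ± 0.31 and -0.09 ± 0.15, so its gene mean describes neither. Col5a2 is the neighbour of Col3a1 in the genome. The lowest fibrillar collagen was Col27a1, at -0.03 ± 0.11.

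Basement membrane collagen IV was represented by Col4a1 and Col4a2, which lie next to each other in the genome and encode the chains that assemble together. Col4a2 had a mean of 0.12 ± 0.02 and Col4a1 of 0.10 ± 0.18 (adjusted p = 0.656 and 0.795). The small SD of Col4a2 is a property of the mouse means, since its Cy5 arrays read 0.42, 0.17 and 0.48 and its Cy3 arrays -0.14, 0.04 and -0.25. One probe of Col4a1 was measured on 2 of the 6 arrays only, where it read -1.76 and 0.45, and the other 3 had means of 0.03, 0.22 and 0.28. From those 3 alone the mean of Col4a1 was 0.18 ± 0.03.

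Among the 12 other collagens 9 had a positive mean and none passed, as was the case after centring. The highest was Col14a1, a collagen that associates with the surface of fibrils. It read 0.81 and 0.45 in mouse 2, 0.38 and 0.22 in mouse 3, and 0.69 and 0.45 in mouse 4. Each mouse was higher with the mutant in Cy5, and all arrays were positive. The mean was 0.50 ± 0.18 (SD, n = 3 mice), 1.41-fold, with a limma adjusted p of 0.0822. It became 0.0280 with the random block and dye term, the fit that takes each array as an observation and passed more features. By deposited number the mean was -0.08 (adjusted p = 0.846), again the opposite sign.

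Collagen VI forms beaded filaments between fibrils. Col6a1 had a mean of 0.25 ± 0.04, with the Cy5 array of mouse 4 at -0.11 and the other 5 arrays positive, and its genome neighbour Col6a2 had 0.15 ± 0.15 (adjusted p = 0.278 and 0.622). Col18a1, a basement membrane collagen with a proteoglycan character, had 0.19 ± 0.15 (adjusted p = 0.507). Col7a1, the anchoring fibril collagen, was the lowest of the group at -0.12 ± 0.12 (adjusted p = 0.704).

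Sparc and Fn1, with Dcn, complete the proteins that bind or bridge collagen. Sparc encodes a secreted protein that binds collagen, and its 6 arrays were all positive, from 0.04 to 0.50. Its mean was 0.26 ± 0.19 (SD, n = 3 mice; adjusted p = 0.395), mouse 3 being the lowest at 0.06. The 3 probes agreed in their means, at 0.28, 0.24 and 0.24. Those at 0.24 lie in the stretch of numbers where the displacement was hardly seen. The probe outside it had 0.28 ± 0.39 and read -0.22 on the Cy3 array of mouse 3. Fn1, fibronectin, was positive on all 6 arrays as well, from 0.06 to 0.59, the highest being the Cy3 array of mouse 3. Its mean was 0.19 ± 0.16 (adjusted p = 0.528) and its 5 probes ranged from 0.06 to 0.28.

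**Figure D3:**
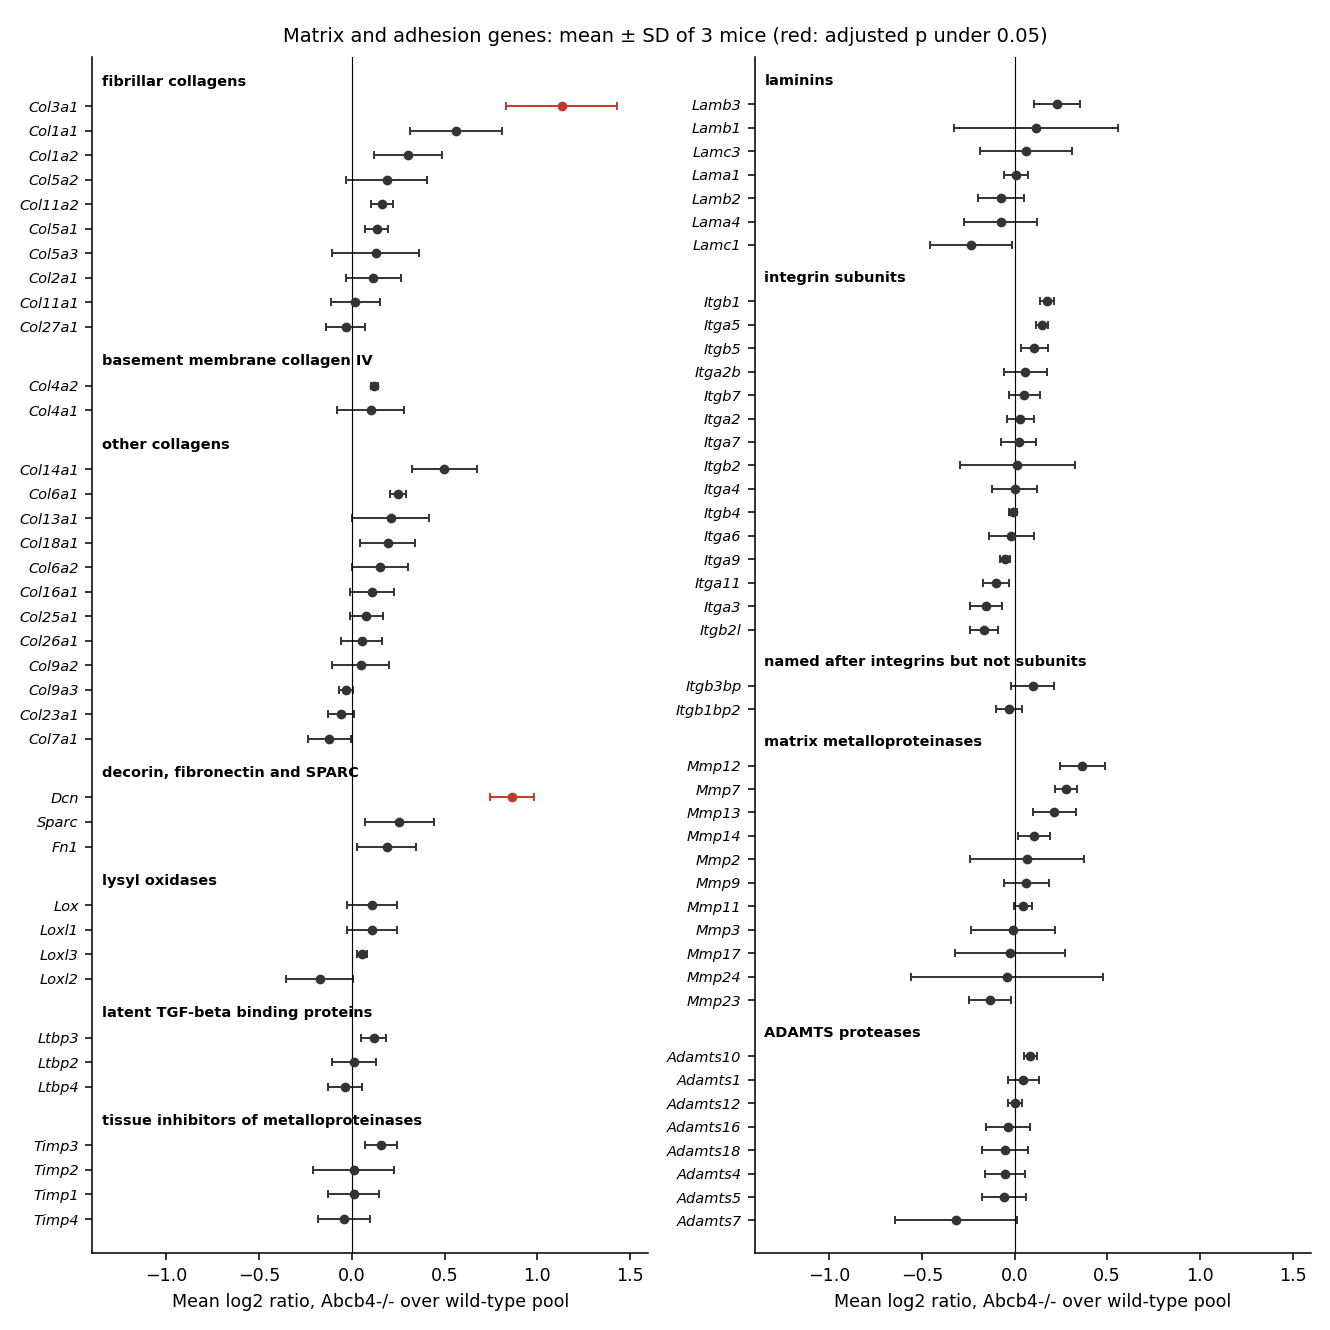
Mean log2 ratio of Abcb4-/- liver over the wild-type pool (horizontal axis) for each of the 81 genes, grouped by family, with bars for the SD of 3 mice and red for an adjusted p under 0.05. Col3a1 at 1.13 and Dcn at 0.87 are the only genes in red, and the lowest gene is Adamts7 at -0.31.

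The enzymes that cross-link collagen showed no gene past the threshold. Lox and Loxl1 each had a mean of 0.11 ± 0.14, Loxl3 had 0.06 ± 0.03 and Loxl2 -0.17 ± 0.18 (adjusted p between 0.590 and 0.872). One of the 3 probes of Lox was measured on only 2 arrays, where it read 1.24 and 0.45, and the other 2 had means of -0.12 and 0.16. From those 2 probes alone, a reading added after the data were seen, the mean of Lox was 0.02 ± 0.04. Latent TGF-beta binding proteins hold the inactive cytokine in the matrix. Ltbp3 had a mean of 0.12 ± 0.07, Ltbp2 of 0.01 ± 0.12 and Ltbp4 of -0.04 ± 0.09. The mean of Ltbp2 turned negative when the arrays were centred.

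Laminins are the trimeric scaffold of basement membranes. Of 7 chains measured 4 had a positive mean (57.1%, beside 58.8% of all features), 3 after centring, and none passed. Lamc1, the gamma chain of most laminins, had the lowest mean, -0.24 ± 0.22 (adjusted p = 0.487), and the arrays divided by dye. It read 0.12, 0.34 and -0.13 on the Cy5 arrays of mice 2, 3 and 4, and -0.18, -0.74 and -0.81 on their Cy3 arrays. The groups of arrays do not overlap, mouse 1 gave 0.16 on its Cy5 array, and the part of the dye in the mean was not tested. Lamb3, a chain of the laminin of epithelial anchoring, was the highest at 0.23 ± 0.13 (adjusted p = 0.394), with 1 array at 0.00 and the other 5 between 0.17 and 0.39. Lamb1 had a mean of 0.12 ± 0.44, Lamb2 of -0.07 ± 0.12 and Lama4 of -0.08 ± 0.20. For Lamb1 the spread among mice was wider than the mean, from -0.38 in mouse 3 to 0.48 in mouse 4.

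Of 15 integrin subunits 9 had a positive mean (60%, beside 58.8% of all features). With the arrays centred on their medians 5 subunits were positive, and with the arrays scaled 6. The median of the subunits, 0.02, became -0.02. None passed in the fit of gene means. Itgb1 encodes the beta 1 chain shared by most receptors for collagen, laminin and fibronectin, and was the highest at 0.17 ± 0.04 (adjusted p = 0.484). Its mouse means lay close together, at 0.22, 0.16 and 0.15, but its 6 probes did not. Their means were 0.52, 0.26, 0.29, 0.03, -0.06 and 0.01, and the first of these passed when probes were tested singly (0.52 ± 0.06, adjusted p = 0.0363). The probe at -0.06 lies in the stretch of numbers where the displacement was hardly seen, and without names there the mean of the gene was 0.22. The alpha 5 chain, which pairs with beta 1 to bind fibronectin, was positive on all 6 arrays, from 0.10 to 0.20, with a mean of 0.15 ± 0.03 (Itga5, adjusted p = 0.565).

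The other integrins lay nearer 0. Itgb5 had a mean of 0.11 ± 0.07 and Itga2, a subunit of a collagen receptor, of 0.03 ± 0.07. The laminin receptor subunits Itga6 and Itga3 had means of -0.02 ± 0.12 and -0.15 ± 0.09. Itgb2l was negative on all 6 arrays, from -0.35 to -0.003, with the lowest mean at -0.17 ± 0.08 (adjusted p = 0.526). The symbols Itgb3bp and Itgb1bp2 match the naming rule but belong to binding partners of integrins, and had means of 0.10 ± 0.12 and -0.03 ± 0.07.

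**Figure D4:**
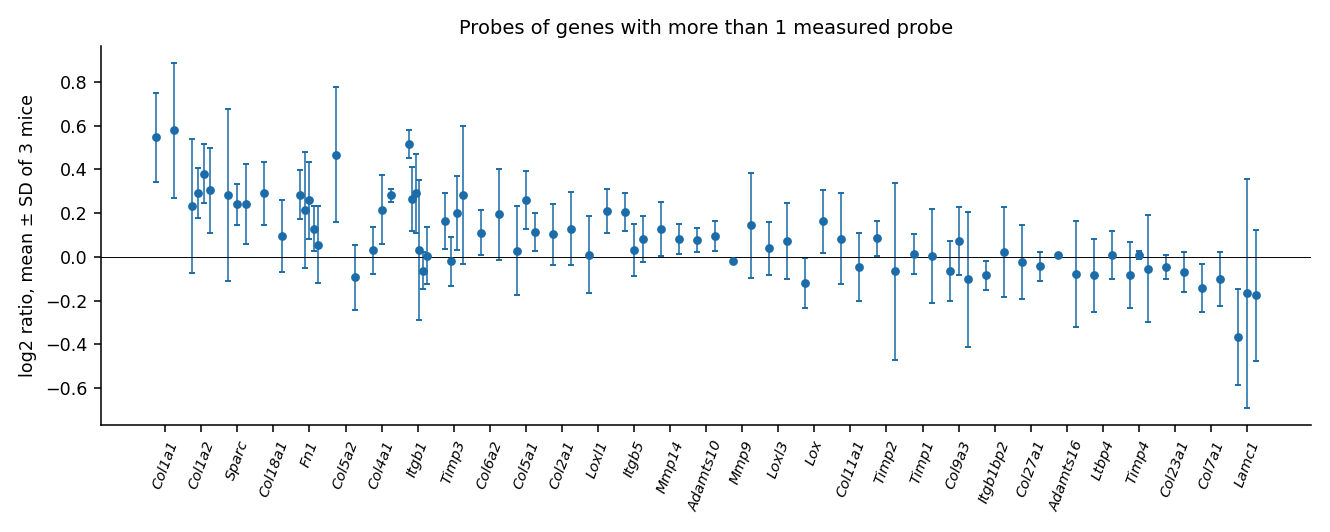
Mean log2 ratio of each probe, with bars for the SD of 3 mice (vertical axis), for the genes with more than 1 measured probe (horizontal axis, ordered by gene mean). The 2 probes of Col1a1, the 4 of Col1a2 and the 3 of Sparc lie together, while those of Col5a2 (0.47 and -0.09) and Itgb1 (-0.06 to 0.52) are spread. The Sparc probes at 0.24 lie in the stretch of numbers where the displacement of names was hardly seen.

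Among 11 matrix metalloproteinases 7 had a positive mean (63.6%, beside 58.8% of all features), also 7 after centring, and none passed. The highest was Mmp12, the elastase of macrophages. It read 0.25 and 0.24 in mouse 2, 0.32 and 0.66 in mouse 3, and 0.43 and 0.30 in mouse 4, positive throughout, with a mean of 0.36 ± 0.12 (SD, n = 3 mice), 1.29-fold, and an adjusted p of 0.150 (0.16 by deposited number). Its genome neighbour Mmp13, the rodent interstitial collagenase, was positive on all 6 arrays too, from 0.05 to 0.50, with a mean of 0.21 ± 0.12 (adjusted p = 0.423). Mmp7, matrilysin, an epithelial protease, had a mean of 0.28 ± 0.06 (adjusted p = 0.228). Its Cy5 arrays read 0.31, 0.55 and 0.65 and its Cy3 arrays 0.23, -0.11 and 0.03, so that the small SD of the mouse means hides a difference between orientations.

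The gelatinases and their activator lay nearer 0. Mmp14, the membrane-anchored activator of Mmp2, had a mean of 0.11 ± 0.09, Mmp2 itself, a gelatinase, 0.07 ± 0.31, and Mmp9, the other gelatinase, 0.06 ± 0.12. Mmp3, stromelysin, had -0.01 ± 0.23. In Mmp2 the mice disagreed in sign, from -0.21 in mouse 3 to 0.39 in mouse 4. The lowest was Mmp23 at -0.13 ± 0.12, with its Cy5 arrays positive and its Cy3 arrays negative in every mouse.

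The tissue inhibitors of metalloproteinases were near 0. Timp1, the inhibitor best known from scarring livers, had a mean of 0.01 ± 0.14 (adjusted p = 0.986), and it turned negative with the arrays centred. Its arrays ranged from -0.43 to 0.52, both in mouse 2, and mouse 1 read 0.75. Its 2 probes had means of 0.01 and 0.006. Timp2 had 0.01 ± 0.22, Timp3, which binds to the matrix, 0.16 ± 0.09, and Timp4 -0.04 ± 0.14. For Timp3 the 4 probes ranged from -0.02 to 0.28. With no wild-type mouse measured singly, and 3 mutant mice, a mean this close to 0 does not show that Timp1 was the same in mutant and wild-type liver.

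ADAMTS proteases cut proteoglycans and process procollagens. Of 8 measured 3 had a positive mean, 2 after centring, and none passed. Adamts7 was the lowest of all 81 genes, with a mean of -0.31 ± 0.33 (adjusted p = 0.449). It read -0.18 and -0.66 in mouse 2, -0.39 and -0.77 in mouse 3, but 0.01 and 0.10 in mouse 4, and mouse 1 gave 0.16. Adamts10 was the highest at 0.09 ± 0.03, and Adamts1 had 0.05 ± 0.08.

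As a whole the set was shifted little. Of the 81 genes 55 had a positive mean (67.9%), beside 58.8% of all features, and the medians were 0.05 and 0.02. With each array centred on its median, 45 of the 81 genes were positive, beside 7689 of 16811 features (45.7%). With the sign of the Cy3 columns turned, 55 genes were positive, beside 64.1% of all features, with medians of 0.0513 and 0.0406. An unadjusted p below 0.05 was reached by 14 of the 81 genes (17.3%) and 9.91% of all features, and 12 of the 14 were positive. A single sign on all 6 arrays was seen in 10 genes, beside 7.05% of all features, and 9 of them were positive, beside 6.18%. Both held for 7 genes, all positive (Col3a1, Dcn, Col1a1, Col14a1, Mmp12, Mmp13 and Sparc), beside 4.66% of all features. For Sparc this rests in part on probes in the stretch of numbers where the displacement was hardly seen. Under the deposited numbers 0 of the 81 genes passed, beside 0.333% of 16796 features, and 7 had an unadjusted p under 0.05, beside 9.92%. These shares are descriptions, and no test was made over the set.

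The share of positive means differed between dye orientations, in the set and over all features. On the Cy5 arrays 62 of the 81 genes had a positive mean (76.5%, beside 72.7% of all features), and on the Cy3 arrays 44 (54.3%, beside 46.5%). The median of the set ran from 0.07 to 0.14 on the Cy5 arrays and from 0.0045 to 0.05 on the Cy3 arrays. Over all features it ran from 0.0545 to 0.082 and from -0.065 to 0.073. In mouse 3 the set was not above all features, at 0.068 beside 0.069 (Cy5) and 0.05 beside 0.073 (Cy3). The fibrillar collagens had a median of 0.14 to 0.38 on every array.

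Genes that act with these proteins were read from lists outside the set, beside 58.8% of all features with a positive mean and 0.41% that passed. Of 18 genes of collagen folding and processing, 13 had a positive mean and 0 passed. Serpinh1, the collagen chaperone, had a mean of 0.02 ± 0.11. Pcolce, which speeds the trimming of procollagen, had 0.16 ± 0.04 (adjusted p = 0.511), a small SD of mouse means over arrays that ran from -0.46 to 0.69. Colgalt2 had the only unadjusted p under 0.05 in this list, with a mean of -0.20 ± 0.12 (adjusted p = 0.480). Of 18 genes of the TGF-beta pathway 13 were positive and 0 passed. The ligand Tgfb1 had 0.02 ± 0.04 and the target Ccn2 -0.05 ± 0.06, while the receptor Tgfbr2 was positive on all 6 arrays at 0.19 ± 0.05 (adjusted p = 0.435). Skil had 0.26 ± 0.12 and Ski -0.22 ± 0.06 (adjusted p = 0.295 and 0.353), each with arrays of both signs.

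Of 32 other matrix glycoproteins and proteoglycans 22 were positive and 0 passed. Vtn, the plasma adhesion protein vitronectin, had a mean of 0.47 ± 0.14 (adjusted p = 0.0813) and Tgfbi, a secreted adhesion protein, 0.45 ± 0.17 (adjusted p = 0.110), each positive on all 6 arrays. Ecm1 was the furthest below 0 of those with an unadjusted p under 0.05, at -0.50 ± 0.45. Of 18 plasminogen-system and other proteases and inhibitors 13 were positive and 0 passed. The lysosomal proteases cathepsin L and S, Ctsl and Ctss, had 0.52 ± 0.24 and 0.44 ± 0.16 (adjusted p = 0.113 and 0.111), positive on all 6 arrays.

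Of 15 focal adhesion genes 12 were positive and 0 passed, the kindlin of blood cells, Fermt3, having 0.32 ± 0.08 (adjusted p = 0.182). Of 3 integrin subunits whose symbols fall outside the naming rule 0 passed. The vitronectin receptor chain Itgav had 0.21 ± 0.12 (adjusted p = 0.433), Itgam of myeloid cells 0.17 ± 0.15 and Itgal of leukocytes -0.20 ± 0.28.

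Markers of the cells that could carry these transcripts were read on the same arrays. Over all features 58.8% had a positive mean and 0.41% passed. Of 12 stellate cell and fibroblast markers 9 had a positive mean and 0 passed, and the median of the list ran from -0.07 to 0.28 over the arrays. Cygb of stellate cells had 0.42 ± 0.33, Vim 0.29 ± 0.31, Des -0.13 ± 0.14 and Gfap -0.36 ± 0.38. Of 6 macrophage markers 4 were positive and 1 passed, the lysozyme gene Lyz2, which rose (0.80 ± 0.22, adjusted p = 0.0224, from 0.58 to 1.06). Cd163 had 0.25 ± 0.13, Itgam 0.17 ± 0.15 and Clec4f 0.17 ± 0.16. The negative ones were Marco at -0.07 ± 0.09 and Ccr2 at -0.23 ± 1.54. Of 11 cholangiocyte markers 10 were positive and 0 passed, and Krt8 and Krt18, keratins that hepatocytes express as well, had 0.64 ± 0.46 and 0.44 ± 0.23. Of 11 endothelial markers 6 were positive, of 9 neutrophil markers 6 and of 9 hepatocyte markers 6, with 0 passing in each list. Those with an unadjusted limma p under 0.05 were endothelial Pecam1 (-0.37 ± 0.37), neutrophil Lcn2 (0.42 ± 0.35) and hepatocyte Tat and Ttr. Tat had -0.68 ± 0.40, negative on all 6 arrays, and Ttr -0.27 ± 0.14 (limma adjusted p = 0.134 and 0.304). Median ratios over the arrays ran from 0.03 to 0.46 for the macrophage list, -0.06 to 0.33 for the cholangiocyte list, -0.19 to 0.18 for the endothelial list, -0.10 to 0.13 for the neutrophil list and -0.22 to 0.45 for the hepatocyte list. The part of any of these cells in the ratios of Col3a1 and Dcn was not tested.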

How the data were processed

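The values were used as deposited by the authors in the series' value table, 1 column per array, and read as log2 ratios. The sources used here give no scanner, background correction, normalization, scale, centring or direction. The base of the logarithm was assumed and not tested, and the fold ratios given in the text rest on it. Values above 15 in size, 19 to 83 per array, are placeholders and were left out. Column medians ran from -0.06 to 0.081.

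The matrix and adhesion genes, the gene lists and the tests were chosen with earlier results of these data known. Probe names come from the platform annotation (12771 of 20794 probes had 1 symbol, none had several) and were moved by 11 rows, a choice made after the data were seen. Probes of a gene were averaged per array and the 2 arrays of a mouse were averaged. Means of mice 2, 3 and 4 were tested against 0 in R 4.3.3 by the moderated test of limma 3.58.1 (two-sided, lmFit, then eBayes), adjusted by Benjamini-Hochberg over 16811 features at a threshold of 0.05. The fit was tested on simulated data of 3 mice, with independent noise and no dye effect or error of the shared pool. It recovered 21 of 100 changes of 0.5 and 71 of 100 changes of 1 on the log2 scale, with 3 false calls. A gene that did not pass is therefore not shown to be unchanged. The count of false calls does not carry over to the measured arrays, which share the pool and differ by dye. Features lacking an orientation in any of the 3 mice were not tested. The replicate is the mouse, and precision is limited by the 3 mice and the 1 pool.

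Genes named in the text are those past the threshold, the highest and lowest of each family, those with an unadjusted p under 0.05 and 1 sign on all 6 arrays, those whose probes differ by more than 0.5, and a chosen set of liver matrix genes. Of that set Col6a3, Col15a1, Lama2, Lama5, Itga1, Itga8, Itgb3, Itgb6, Itgb8, Mmp19, Adamts2, Adamts13, Loxl4 and Ltbp1 were not analysed here. Genes of the other lists were named after their values were seen. Alternatives were leaving out each mouse, centring, scaling, turned Cy3 columns, each orientation alone, a random block with a dye term, mouse 3 from its Cy5 array, other rules for missing values and placeholders, single probes, a threshold of 0.10, names by deposited number, no incompletely measured probes, and no names for probe numbers above 8000 and up to 14000. Promoters are from RefSeq, GRCm38.p6, matched by symbol.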

Additional observations from a re-analysis of the deposited data

Results flagged for a closer look

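The Cy3 array of mouse 3 had an SD of 0.561 over all probes, apart from the other 6 hybridisations, which lay between 0.244 and 0.331. Chance marks about 1 in 20 groups in this way. Over the probes of the matrix and adhesion genes its SD was 0.466, beside 0.353 for the next, which is not apart by the same measure.

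The hybridisation of mouse 1 entered no mean and was made in 1 dye orientation. It was against the same pool, so a deviation of the pool would recur in it. Of the 14 matrix and adhesion genes with an unadjusted p under 0.05 in mice 2 to 4, 12 had the same sign there when its Cy5 column was read as deposited, as throughout the text. With its Cy3 column, the same values with the sign turned, 2 of the 14 had the same sign, and no source states the direction. The 12 were the 12 positive ones (median 0.36 in mouse 1), and the 2 negative ones, Adamts7 and Lamc1, were positive. All 14 were thus positive in mouse 1, whatever the sign of their mean. Over all features 49.0% had the same sign, and over the 81 genes 65.4%. Of the features past the threshold that mouse 1 measured, 56 of 65 had the same sign on the Cy5 column and 9 of 65 on the Cy3 column. On the Cy5 column of mouse 1, 55.6% of all features were positive.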

How the results depend on the processing

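No paired analysis was possible because each array is a ratio within itself against 1 pool. Leaving out 1 mouse at a time gave 1 to 2 of the 81 genes past the threshold, 26 to 84 features, 49 to 57 genes with a positive mean and medians of 0.0321 to 0.0718; Dcn passed each time, and Col3a1 did not without mouse 3. Centring gave 37 features and a median of 0.0217, with Col3a1 and Dcn called. Scaling gave 1 gene, Col3a1, 44 features and a median of 0.0263. Turned Cy3 columns gave 0 genes (52 features), with Col3a1 at 0.11 and Dcn reversed at -0.00867. Cy5 arrays alone gave 1 gene, Col3a1, and a median of 0.11. Cy3 arrays alone gave 0 genes, 18 features and a median of 0.0273. The random block with a dye term gave 4 genes and 127 features, mouse 3 from its Cy5 array 1 gene (Col3a1) and 37 features, single probes 123 features and 90 positive probes, and a threshold of 0.10 gave 4 genes and 140 features. Under the deposited numbers 0 genes passed, the median was 0.0152, Dcn reversed to -1.02 and 38 of the 81 genes changed sign. The causes of these changes were not tested. Turned columns moved the means of 39 of 52 named genes in sign or by more than their SD. Another limit on placeholders or rule for missing values changed no call among the 81 genes. With 3 mice and 1 pool the spread of wild-type liver is unmeasured, and signal over background is unknown.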
